A study of Mus musculus with 5 samples.

Results

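The sites described here are the annotated transcription start sites over which no library of an ATAC-seq time course held an entry. They were chosen from the measured values: a site was a member if it carried a gene symbol and its value was 0 in all 5 libraries. Of 33952 named sites, 10139 met this rule, which is 29.9% with a Wilson 95% interval of 29.4 to 30.4%, and the whole table held 34714 sites. Because the values chose the members, the counts below are descriptions and carry no test.

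The samples were nuclei of C17.2, a multipotent neural stem cell line of the mouse that the labels give as CD1 x C57BL/6, and open chromatin was profiled by ATAC-seq. Libraries were taken at 0, 0.5, 1, 1.5 and 2 h after the medium with DMEM/F12 and 10% fetal bovine serum was exchanged for Knockout DMEM with GlutaMAX and N2 supplement, a serum-free mixture in which neural progenitors differentiate. Each time was 1 library made with the Tn5 transposase TDE1, so no difference between times has a replicate error. All libraries share the line and the transposase, and the 0 h library is the only one without the change of medium.

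Tn5 inserts sequencing adapters where DNA is not wrapped in nucleosomes, and the promoters of active genes are usually among the most accessible places of a genome. Many mouse promoters lie in CpG islands, stretches rich in the dinucleotide CG that are mostly unmethylated. In stem and progenitor cells, CpG islands of developmental regulators are typically bound by Polycomb complexes, which keep those genes silent. A value here is a whole number from 0 to 10, read as how many entries of a library's list of intervals lie over a site a few base pairs wide. A 0 therefore says that the site was not called covered, which does not show closed chromatin, and the sequencing depth behind each call is unknown.

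Promoter stretches of 6 genes whose listed sites were all at 0 show the range of sequence involved. The genes are Pou4f1, a POU homeodomain factor of sensory neurons, Jag2, a Notch ligand, Grin1, the obligatory subunit of NMDA glutamate receptors, Actg1, cytoplasmic gamma-actin, Rab42, a small GTPase, and Foxe3, a forkhead factor of the lens. Pou4f1, Jag2 and Grin1 had some of the highest observed/expected ratios of CpG among never-covered genes with a site within 50 bp of the annotated 5′ end, Rab42 and Foxe3 had the lowest, and Actg1 was picked after its values were seen. Each stretch runs from 150 bases before to 30 bases from a RefSeq start (GRCm38.p6), 5′ to 3′ on the gene's strand, and capitals mark the bases of the gene's listed sites.
Pou4f1 (chr14:104467970-104468149, minus strand): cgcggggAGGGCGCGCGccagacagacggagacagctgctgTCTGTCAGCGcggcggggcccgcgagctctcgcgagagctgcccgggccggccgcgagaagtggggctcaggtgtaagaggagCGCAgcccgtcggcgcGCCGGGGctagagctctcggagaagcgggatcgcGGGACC
Jag2 (chr12:112929466-112929645, minus strand): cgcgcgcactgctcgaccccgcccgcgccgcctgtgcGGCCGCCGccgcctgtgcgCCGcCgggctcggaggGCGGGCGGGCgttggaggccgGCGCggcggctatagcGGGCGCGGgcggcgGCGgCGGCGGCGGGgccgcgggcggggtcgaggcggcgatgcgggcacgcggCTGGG
Grin1 (chr2:25319158-25319337, minus strand): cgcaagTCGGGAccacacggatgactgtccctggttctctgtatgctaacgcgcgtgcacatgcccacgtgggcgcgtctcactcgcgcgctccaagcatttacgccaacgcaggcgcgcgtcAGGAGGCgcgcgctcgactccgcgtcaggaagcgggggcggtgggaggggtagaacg
Actg1 (chr11:120348466-120348645, minus strand): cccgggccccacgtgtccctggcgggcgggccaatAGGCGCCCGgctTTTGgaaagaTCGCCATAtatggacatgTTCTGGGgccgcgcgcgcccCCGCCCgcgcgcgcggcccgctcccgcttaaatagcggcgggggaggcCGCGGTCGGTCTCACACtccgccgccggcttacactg
Rab42 (chr4:132303327-132303506, minus strand): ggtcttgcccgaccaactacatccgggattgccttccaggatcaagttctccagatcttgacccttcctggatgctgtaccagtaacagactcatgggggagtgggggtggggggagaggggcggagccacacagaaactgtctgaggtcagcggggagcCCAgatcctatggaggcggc
Foxe3 (chr4:114926038-114926217, minus strand): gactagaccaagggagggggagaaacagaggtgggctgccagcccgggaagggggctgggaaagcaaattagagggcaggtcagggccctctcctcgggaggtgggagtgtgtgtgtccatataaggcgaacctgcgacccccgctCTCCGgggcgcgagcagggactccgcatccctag

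The 6 windows differed widely in composition. The 300-base RefSeq window around the Pou4f1 start held 57 CpG, with an observed/expected ratio of 1.24 and a GC content of 78.3%. The Jag2 window held 63 CpG at 86.0% GC, and the Grin1 window 33 CpG at 60.7% GC. At the other end, the Rab42 window held 6 CpG with a ratio of 0.302, and the Foxe3 window 10 CpG with a ratio of 0.345. Each window was searched on both strands for TATAAA, the TATA box, for GGGCGG, the GC box, and for CCAAT, the CAAT box. Of these 6 windows only that of Rab42 held TATAAA, which is found in 13.6% of all 32851 RefSeq windows. GGGCGG was in all but the Foxe3 window, against 35.7% of all windows, and CCAAT was in the Actg1 and Rab42 windows, against 37.4%. The median GC content was 52.7% over all windows and 69.7% over windows with a named site. The shares over all windows are therefore not a background of like composition. A match describes letters only and is not a bound site.

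Most sites were covered in every library or in none. There were 15072 named sites covered in all 5 libraries (44.4%), and 1371, 2306, 2195 and 2869 sites covered in 1, 2, 3 and 4 of them. The libraries differed in how many named sites each left at 0: 17673 (52.1%), 13843 (40.8%), 16408 (48.3%), 10999 (32.4%) and 11433 (33.7%) in time order. Of the sites at 0 in the 1.5 h and 2 h libraries, 92.2% and 88.7% were at 0 everywhere, against 57.4%, 73.2% and 61.8% in the 3 earlier libraries. Without the 1.5 h library 10828 sites were at 0 throughout, and without the 0 h library 10186. Of 762 sites with no gene symbol, 482 (63.3%, 59.8 to 66.6%) were at 0 in every library.

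**Figure D1:**
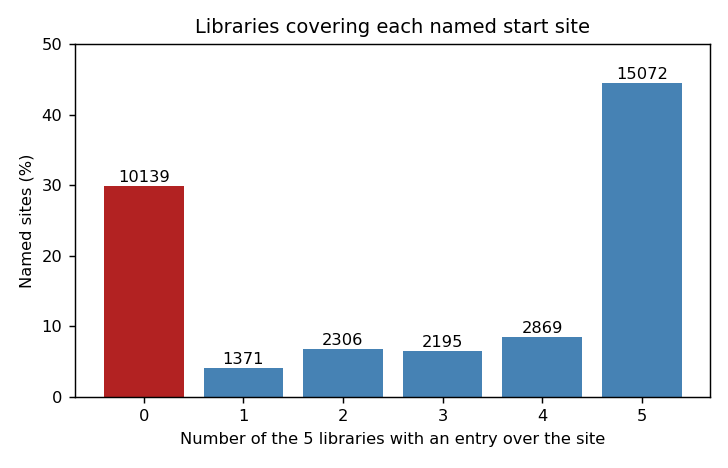
Share of the named sites (percent, vertical axis) by the number of the 5 libraries with an entry over the site (horizontal axis), with the number of sites above each bar. The distribution has its highest bars at the ends, with 10139 sites at 0 libraries and 15072 at all 5.

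Just outside the rule lay 516 named sites with a total of 1 entry. That entry was in the 1.5 h library for 257 of them and in the 2 h library for 198, against 22, 30 and 9 in the 0, 0.5 and 1 h libraries. For 83 genes the best site had a total of 1. Adcy5, an adenylyl cyclase, had 7 of its 12 sites at 0 and no site with more than 1 entry. The first of its covered sites along the chromosome had that entry at 2 h. Ago2, the slicer Argonaute, had its entry at 1.5 h and 4 of its 5 sites at 0. The other 3 of the first 5 such genes in alphabetical order were Agpat3, Anp32e and Ass1.

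The never-covered sites belonged to 2 kinds of gene. Every listed site was at 0 in 1542 of 8034 genes (19.2%, 18.3 to 20.1%), called never-covered genes here, and these held 5639 of the 10139 sites. The other 4500 sites lay in 973 genes (12.1%, 11.4 to 12.8%) that had another, covered site, and made up 45.5% of the 9900 sites of those genes. No site was at 0 in all libraries in the remaining 5519 genes (68.7%). The median number of sites was 2 in never-covered genes, 8 in genes with both kinds and 2 in genes with none at 0. A gene with 1 listed site was never-covered in 598 of 2603 cases (23.0%), and a gene with 11 or more in 107 of 684 (15.6%, 13.1 to 18.6%), while genes with both kinds made up 51.5% of the latter.

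Genes with many listed sites and none covered were led by Jag2 with 36 sites over chr12:112928727-112929997. Taf4, a subunit of the general transcription factor TFIID, had 32 sites at 0, and Cdk2ap1, a cell cycle regulator, had 28. Pou4f1 and Rbmxl2, a testis RNA-binding protein, had 27 each. Arhgef7, a guanine nucleotide exchange factor, and the non-coding Sox1ot had 25 each, and Ajap1, an adherens junction protein, had 24. The sites of 1 gene often lie a few base pairs apart and are not independent. Merged within 200 bp, named sites formed 10827 regions, of which 2698 (24.9%, 24.1 to 25.7%) were at 0 throughout, and 1369 of these were single sites.

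Developmental transcription factors were prominent among never-covered genes. Of 157 measured genes in 4 lists of such factors, 96 (61.1%, 53.3 to 68.4%) were never-covered, beside 19.2% of all genes and 1446 of the 7877 genes in none of these lists (18.4%). Another 31 had both kinds of site and 30 had no site at 0. The lists were written with earlier results of these data known, and their counts are read beside the share over all genes only. List counts cover measured genes, those with a named site, and many listed genes had none. Measured were 16 of 52 listed Hox genes and 16 of 31 listed neuron markers.

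In the Hox clusters, whose genes set position along the body axis, 13 of 16 measured genes were never-covered. They came from all 4 clusters, from Hoxa7, Hoxa9, Hoxa10, Hoxa11 and Hoxa13 through Hoxb3, Hoxb7 and Hoxb8 to Hoxc12 and Hoxd1, Hoxd3, Hoxd11 and Hoxd13. Hoxa13, which patterns the distal limb and hindgut, had 19 sites at 0 over chr6:52260124-52261000, the nearest of them at −5 bp from the annotated 5′ end. Hoxb9 was the only measured Hox gene with no site at 0, and Hoxc5 and Hoxc13 had both kinds. Other homeobox genes were never-covered in 47 of 77 cases (61.0%). Among these were Pou4f1, Lhx1 and Isl1, which specify neuron classes, Otx2 and Otx1 of the forebrain and midbrain, En2 of the midbrain-hindbrain boundary, Six2 of nephron progenitors and Nkx2-5 of the heart. The group was not uniform, since 14 of the 77, Pou3f2, Emx2, Six4 and Msx2 among them, had no site at 0.

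Of the proneural and neuronal factors 15 of 25 (60%) were never-covered, and with only sites within 1000 bp of the annotated 5′ end 5 of 14 (35.7%). They included Atoh1, the proneural factor of cerebellar granule cells and hair cells, Neurod2 and Tbr1 of cortical projection neurons, Insm1 with 22 sites, and Bcl11a and Bcl11b. Another 8 had no site at 0, among them Neurog1, Neurog2, Sox4, Sox11, Ebf1, Eomes and Bhlhe22. The list of Fox, Sox, Pax, Tbx, Gata and Zic genes had 21 of 39 (53.8%) never-covered, among them Zic1 to Zic4, Pax6, Pax7, Gata4, Gata6, T and Sox17. Of secreted developmental ligands 24 of 41 (58.5%) were never-covered, including Shh, Ihh, Nodal, Fgf8 and 11 Wnt genes, while Wnt5a, Dhh, Dll4, Fgf5 and Gdf6 had no site at 0.

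Genes of mature neurons were also often at 0. Neurotransmitter receptors were never-covered in 23 of 31 cases (74.2%, 56.8 to 86.3%), among them the glutamate receptors Grin1, Grin2b and Grik2, the nicotinic receptors Chrna4 and Chrna7, the dopamine receptor Drd2 and the serotonin receptor Htr6. Another 6 had no site at 0, among them Adra1b, Adra1d, Gabrb2, Glrb and Grin2d. Potassium channel genes, recognised by symbol, were never-covered in 27 of 45 cases (60%), among them Kcna2 and Kcnj6, and sodium and calcium channel genes in 9 of 21 (42.9%). Neuron markers were never-covered in 9 of 16 cases, among them Syn1 of synaptic vesicles, Rbfox3 (NeuN), Nefh and Ina of neurofilaments, Elavl3, Shank3 and the vesicular transporters Slc17a7 for glutamate and Slc32a1 for GABA. Map2, Nefm, Syp and Elavl4 had no site at 0. Of 17 microRNA genes and host transcripts 5 were never-covered (29.4%, 13.3 to 53.1%, an interval that holds the 19.2% of all genes) and 9 had no site at 0. The 5 were Mir124a-3, Mir219a-2, Mir375, Mir670hg and Mir124a-1hg, and miR-124 is known as an abundant microRNA of neurons.

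Of 23 listed markers of the labelled cell type, the neural progenitor, only 17 were measured. Of these 17, 4 were never-covered (23.5%, 9.56 to 47.3%), a share whose interval holds the 19.2% of all genes. With only sites within 1000 bp of the 5′ end, 2 of 15 were (13.3%). The 4 were Pax6, Sox3, Nr2e1 and Msi1. Their nearest listed sites lay 7454 bp from the annotated 5′ end for Pax6 and 70495 bp for Msi1. The distances were 676 bp for Nr2e1 and −6 bp for Sox3. That end is the outer limit of the gene record, so the Pax6 and Msi1 zeros may lie at other starts inside the gene. Nes, Hes1, Gli2 and Lhx2 had both kinds of site, and 9 others, among them Notch1, Notch2, Cdh2, Sox9, Msi2, Rest, Gli3 and Emx2, had no site at 0. For other cell types, Cldn5, Epcam, Fli1 and Sox17 of endothelium or epithelium were never-covered (4 of 4 measured, of 22 listed). So were Olig1, Olig2 and Mbp of the oligodendrocyte lineage (3 of 6) and Ikzf1, Kit and Tbx21 of blood (3 of 6). Gata4, Cdx2, Foxa3 and Actn2 were among the 9 of 12 liver, endoderm and muscle genes that were never-covered. The intervals for the oligodendrocyte lineage and for blood, both 18.8 to 81.2%, hold the 19.2% of all genes. Nfia was never-covered among 3 astrocyte genes (6.15 to 79.2%), with its nearest listed site 200144 bp from the annotated 5′ end. Neither of the mesenchyme genes Snai1 and Twist1 was never-covered.

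Few genes in the groups needed by every cell were never-covered, beside 19.2% of all genes, but most of these groups were small. No respiratory chain gene was never-covered (0 of 15, upper limit of the interval 20.4%), although Atp5g2 and Atp5o had both kinds of site. Cytosolic ribosomal protein genes were never-covered in 1 of 38 cases (Rpl3; 0.466 to 13.5%), an interval below the 19.2% of all genes. Mitochondrial ribosomal protein genes were so in 1 of 22 (Mrpl34, 0.807 to 21.8%) and proteasome subunits in 1 of 13 (Psmd12, 1.37 to 33.3%). Complex I subunits were so in 0 of 6 (upper limit 39.0%). The intervals of these last groups and of the respiratory chain hold the 19.2%. Actg1, transcribed in nearly all cell types, had all 10 of its listed sites at 0, over chr11:120348173-120348610, and the nearest covered site lay 1.45 kb away. Furin, a ubiquitous proprotein convertase, had 17 sites at 0. The nearest lay 2468 bp from the annotated 5′ end, but a listed site lay in a RefSeq promoter window with a GC content of 82.3%. Actg1 and Furin were chosen after their values were seen.

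**Figure D2:**
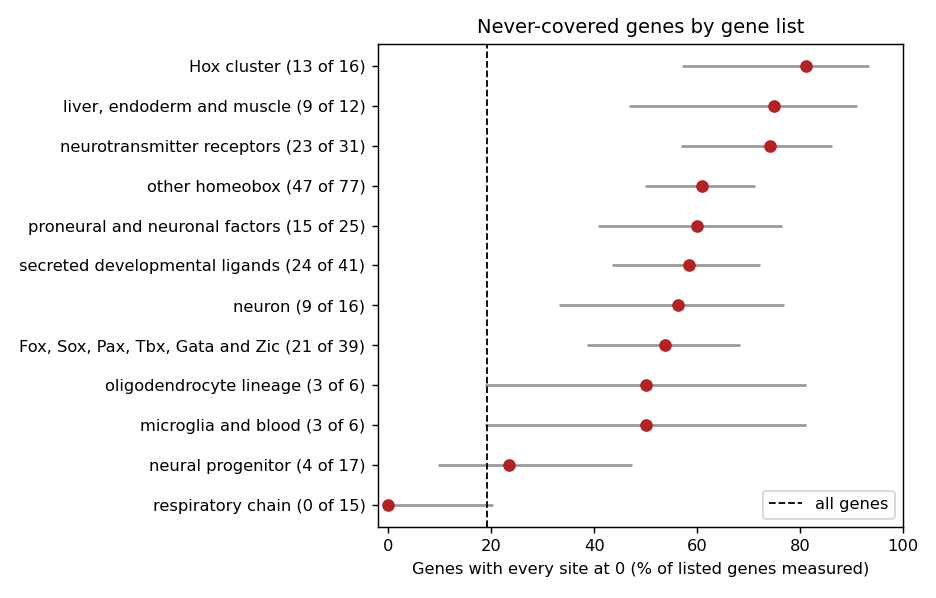
Share of the measured genes of each list with every listed site at 0 in all 5 libraries (percent, horizontal axis), with Wilson 95% intervals over genes and the counts beside the list names; lists with fewer than 6 measured genes are left out. The dashed line is the 19.2% of all genes, and 10 of the 12 lists shown have a share of 50% or more while respiratory chain genes have 0 of 15.

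Gene type and chromosome gave further contrasts. Protein-coding genes were never-covered in 1209 of 7035 cases (17.2%, 16.3 to 18.1%), lncRNA genes in 124 of 425 (29.2%, 25.1 to 33.7%) and pseudogenes in 49 of 59 (83.1%, 71.5 to 90.5%). Predicted genes with Gm symbols were never-covered in 255 of 656 cases (38.9%). By chromosome the share ran from 12.4% of 217 genes on chromosome 16 to 26.7% of 172 genes on X, with all 3 measured Y genes never-covered. No source used here says how reads with several equal matches were treated, so a 0 in a pseudogene or in near-identical copies is uncertain.

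Never-covered sites lay farther from the annotated 5′ end of their gene than covered sites did. Counting both directions, 61.2% lay within 1000 bp against 78.0% of covered sites, and 23.0% lay beyond 5000 bp against 11.1%. The median signed position, downstream positive, was 546 bp against 256 bp. It also reflects that 12.9% of never-covered and 18.7% of covered sites lay upstream. Position was not used to choose the sites. The share at 0 was 17.9% (16.4 to 19.3%) in the 100 bp before the 5′ end and 18.4% in the first 50 bp after it. It was 25.9% at 251 to 500 bp, 38.6% at 751 to 1000 bp and 49.3% (47.1 to 51.5%) at 5001 to 20000 bp downstream. More than 1000 bp upstream it was 37.4%.

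**Figure D3:**
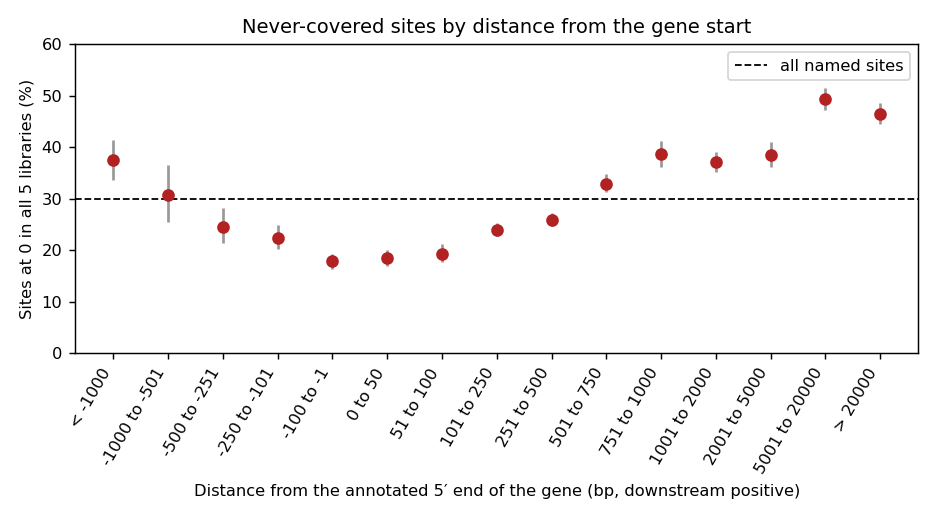
Share of named sites at 0 in all 5 libraries (percent, vertical axis) by distance from the annotated 5′ end of the gene (bp, downstream positive, horizontal axis), with Wilson 95% intervals over sites. The share is lowest from −100 to 50 bp, at 17.9% and 18.4%, and highest at 5001 to 20000 bp, at 49.3%; the dashed line is the 29.9% of all named sites.

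The difference also appeared gene by gene. The site nearest to the annotated 5′ end lay at a median of 385 bp in 1414 never-covered genes (interval of the median 316 to 437 bp) and 138 bp in 5231 genes with no site at 0 (126 to 149 bp). It lay within 1000 bp in 938 never-covered genes (66.3%) and in 84.2% of the genes with no site at 0. For 269 never-covered genes (19.0%) no listed site lay within 5000 bp, against 6.98%. Their zeros describe places away from the outer 5′ end of the gene record, which may include other starts inside the gene. At the other end 311 never-covered genes (22%) had a listed site within 50 bp, among them Jag2, Hoxa13, Pou4f1, Wnt7a, Syn1, Lhx1 and Chrna7. Counting only sites within 1000 bp of the 5′ end, 988 of 6103 genes (16.2%) were never-covered, and 112 of 199 listed genes (56.3%, against 57.1% with all sites). Single lists moved more than this pooled share.

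Base composition could be described only where RefSeq gave a promoter window that held a listed site. A RefSeq window, not necessarily one that held a listed site, was found for 993 of 1542 never-covered genes (64.4%). It was found for 76.3% of the genes with no site at 0, and these are too few to compare the gene classes as wholes. Identifier symbols left out, 279 never-covered genes had a site within 50 bp of the 5′ end. Of these, 193 had a window that held a listed site of the gene. Taken window by window, 4696 windows held a named site and 688 (14.7%) had only sites at 0. All 4696 windows together held 1982 of the never-covered sites (19.5%), including zeros in 146 windows with both kinds of site. From 50% GC upward the share at 0 rose with GC content, from 8.53% of 422 windows at 50 to 60% GC through 12% at 60 to 70% and 16.3% at 70 to 80% to 25.4% (20.6 to 30.7%) of 284 at 80 to 85%. At 85% GC or more it was 22 of 42 windows (52.4%, 37.7 to 66.6%). Below 50% GC it was 3 of 20 (15%, 5.24 to 36%), outside this order but with a wide interval. Jag2 at 86.0% and Phf2, a histone demethylase, at 87.0% were among the most GC-rich named windows.

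The same share fell as the CpG ratio rose, although CpG needs G and C. It was 31 of 87 windows (35.6%) at a ratio of 0.4 to 0.6, 20.5% at 0.6 to 0.8, 13.6% at 0.8 to 1.0, 11.9% at 1.0 to 1.2 and 9 of 117 (7.69%) at 1.2 or more. The trends with GC and with CpG ratio were both present when the windows were split by the other measure. Among windows with a ratio of 0.8 or more, 4.03% were at 0 under 60% GC, 9.10% at 60 to 70%, 14.5% at 70 to 80% and 28.7% at 80% or more. Among those with a lower ratio, the shares were 18.8%, 20.1% and 30.7% up to 80% GC. Among the latter only 2 windows reached 80% GC. As wholes, windows with only sites at 0 and windows with a covered site were close in composition. Their median GC content was 71.7% and 69.3%, their median CpG ratio 0.902 and 0.937, and both had a median of 33 CpG. Windows of 1 gene can overlap, and the part of base composition in the zeros was not tested.

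**Figure D4:**
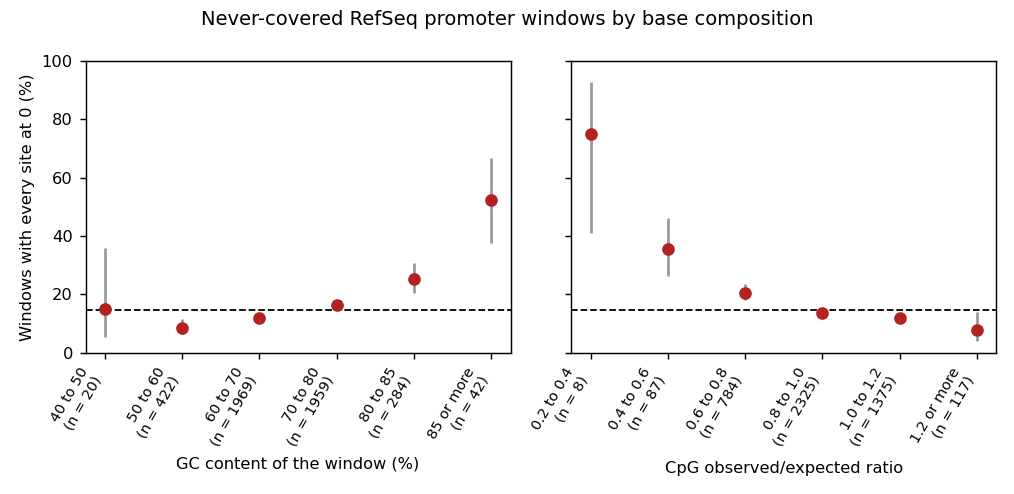
Share of RefSeq promoter windows with every listed site at 0 (percent, vertical axes) by GC content of the window (left, percent) and by its observed/expected CpG ratio (right), with Wilson 95% intervals over windows and the number of windows under each point. The dashed line is the 14.7% of all 4696 windows; the share reaches 52.4% at 85% GC or more and is 7.69% at a CpG ratio of 1.2 or more.

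Never-covered genes lay apart from covered sites. The nearest covered site of any gene was a median of 88461 bp away (80264 to 95862 bp), beyond 10000 bp in 1433 of 1542 genes (92.9%) and within 1000 bp in 21 (1.36%). To separate this from the absence of a covered site of their own, the distance to another gene was measured for each class. Another gene's site of any kind lay a median of 60.6 kb from never-covered genes and 55.2 kb from genes with no site at 0. Another gene's covered site lay 91.2 kb and 64.3 kb away, and within 1000 bp in 1.36% and 12%. The first quartile of that distance was 37.5 kb and 21.7 kb, so lying beyond 10000 bp from it was usual in both classes. Another gene's site of any kind was within 1000 bp in 5.84% and 12.3%, so close neighbours of any kind also differed in frequency. Among the close exceptions, Taf4 lay 146 bp from a covered site of 4921531C22Rik with 0, 2, 0, 2 and 2 entries in time order. Xpo7, a nuclear export receptor, lay 371 bp from a site of Dok2 with 4, 3, 3, 3 and 4 entries, and Foxa3 lay 739 bp from the nearest covered site.

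Never-covered genes had never-covered neighbours in the table more often than other genes did. With identifier symbols included, there were 266 runs of 2 or more along the chromosomes, holding 686 of the genes (44.5%), and 77 runs had 3 or more. With 19.2% of all genes never-covered, many runs would arise without any clustering, and their expected number was not computed. Both longest runs had 14 genes, at chr4:145464219-147941193 and chr14:3572086-7314989, and their members were almost all predicted genes with Gm symbols. A run of 7 at chr6:52216964-52316818 held Hoxa7, Hoxa9, Hoxa10, Hoxa11, Hoxa13, Evx1os and Evx1. A run of 6 at chr11:96284490-96464651 held Hoxb8, Hoxb7, Hoxb5os, Hoxb3, Hoxb3os and Skap1, and a run of 5 on chromosome 13 held Irx1, Irx2 and Irx4, homeobox genes of 1 Iroquois cluster. The neighbours of never-covered genes were never-covered in 27.3% of cases, against 17.2% for the neighbours of other genes. Without symbols that are only identifiers, such as Gm and Rik numbers, the values were 20.5% and 16.4%, beside 17.1% of all the genes left.

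In the 973 genes with both kinds of site, the zeros mostly lay downstream of the coverage. The median never-covered site was downstream of the median covered site in 697 of 942 such genes with a known 5′ end and upstream in 245. A covered site was nearer to the 5′ end in 730 and a never-covered site in 211. From a site at 0 to the nearest covered site of the same gene was a median of 276 bp (261 to 289 bp), with 75.9% within 1000 bp and 773 sites, in 179 genes, beyond 5000 bp. The covered sites of these genes were covered less often than those of genes with no site at 0, at 48.7%, 67.0%, 52.2%, 90.1% and 87.3% in time order against 74.1%, 89.6%, 80%, 98.2% and 96.7%. A gene enters the mixed class by holding a 0, so this contrast is a description of the class.

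Some genes had zeros more than 5000 bp from every covered site of the gene. Basp1, a membrane protein of growing axons, had 8, 6, 6, 9 and 6 entries in time order at each of 3 sites around its annotated 5′ end. Its other 14 sites, all at 0, lay together from 49150 to 49552 bp downstream. No listed Basp1 site lay between these places. In Auts2, a regulator of neuronal development, the order was reversed: a site 33 bp from the 5′ end was at 0, and the best site, 1004451 bp downstream, had 7, 6, 6, 6 and 5 entries. Ptprn2, Sh3pxd2a, Tenm3, Mecom, Ppp1r13l and Sipa1l1 completed the 8 genes with such zeros and the highest entries, and their best sites had totals of 24 to 27. Ptprn2, Tenm3, Ppp1r13l and Sipa1l1 each had 1 such zero, and the best sites of Ptprn2, Sh3pxd2a and Tenm3 lay 668119, 150304 and 679391 bp from the annotated 5′ end.

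Other genes with both kinds held zeros within 50 bp of the annotated 5′ end, 165 sites in 93 genes. Of these 165 sites, 32 (19.4%) had a site of any gene, covered in any library, within 500 bp on both sides. Nsd2, a histone H3 lysine methyltransferase, had 14 of its 35 sites at 0, from −161 to +442 bp around the 5′ end. Its 2 most upstream sites had 3, 4, 4, 4 and 4 entries, and the edge of coverage then differed by library: sites from −342 to −280 bp were 0 at 0 h and 4 at each later time, the site at −275 bp was covered at 1.5 and 2 h only, and sites from −257 to −173 bp at 2 h only. From +470 bp on, 10 Nsd2 sites had 2 entries at 2 h and none before. The Nsd2 zeros had covered sites on both sides at 2 h and on the upstream side alone at the other times.

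Kmt2c, another histone H3 methyltransferase, had 15 of 20 sites at 0, from −78 to +804 bp. Its 4 upstream sites, the nearest at −174 bp, each had 4, 4, 3, 3 and 4 entries, and the site at +1034 bp had 1 entry at 0.5 h and 1 at 1.5 h. The RefSeq window at the Kmt2c start had a GC content of 88%. In Olfm2, which encodes a secreted olfactomedin, 3 sites around the 5′ end were at 0, and 3 sites 18327 to 18461 bp downstream had 4, 5, 2, 3 and 2 entries. Tmeff1, Plcb3, Iqsec1 and Auts2 were also among the 8 genes of this kind with the highest entries.

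**Figure D5:**
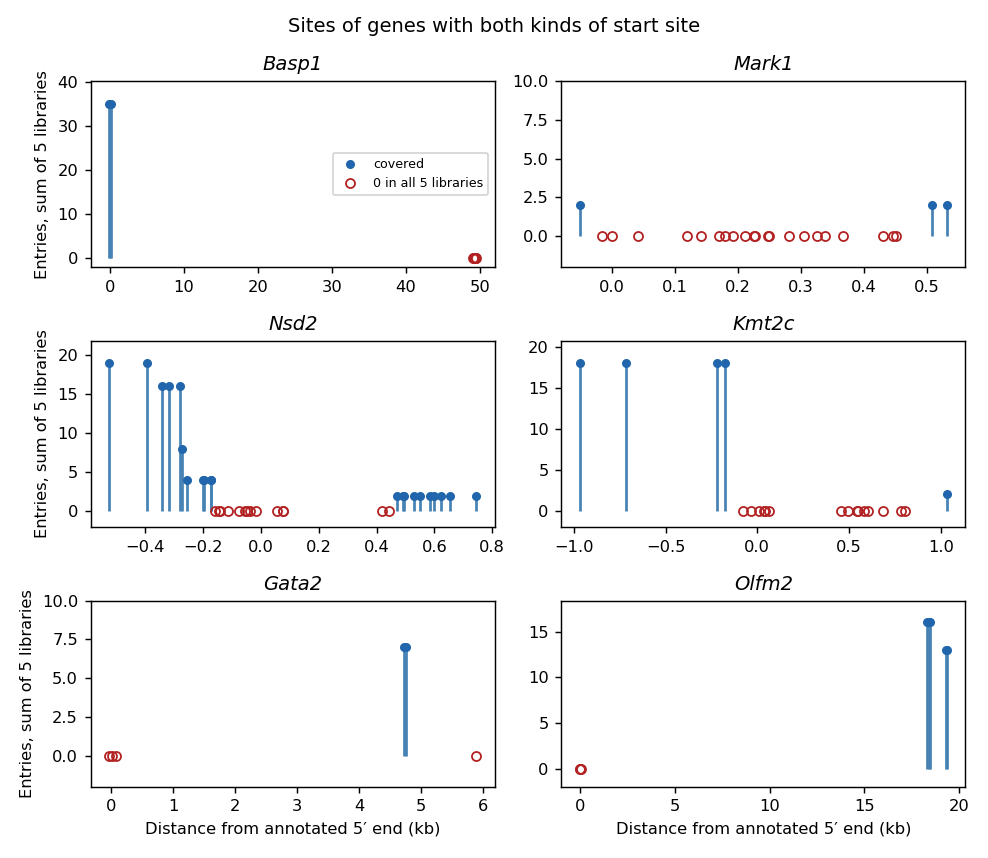
Entries summed over the 5 libraries (vertical axes) at each listed site of 6 genes with both kinds of site, by distance from the annotated 5′ end (kb, downstream positive, horizontal axes, each with its own scale). Filled points are covered sites and open points are sites at 0 in all 5 libraries: in Basp1 the 14 zeros lie far downstream, in Mark1, Nsd2 and Kmt2c they lie between covered sites, and in Gata2 and Olfm2 they include the annotated start.

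Zeros enclosed by coverage were a minority. Of the 10139 sites, 764 (7.54%) had a covered site of any gene within 500 bp on both sides. Another 2284 (22.5%) had one on 1 side only and 7091 (69.9%) on neither. All 764 belonged to genes with both kinds of site. A site covered in any library counted, so the sides need not be covered in the same library. Zeros enclosed within 1 library were not counted. The enclosed sites lay in 189 genes, among them Mark1 with 18 and Med13l and Usp7 with 14 each, all named after their values were seen. In Mark1, a microtubule affinity kinase, the covering entries were 2 at 0 h only at 508 and 532 bp and 2 at 1.5 h only at −51 bp, so its zeros lay between sites covered in different libraries.

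In 17 genes 1 RefSeq start was never covered while another start of the same gene was covered, which sets both kinds of sequence side by side. The never-covered start was the upstream one in 8 genes and the downstream one in 9. It had more CpG than the covered start in 9 and fewer in 8, and the median GC content was 71.7% for both kinds. Gata2, a zinc finger factor of blood and neurons, and Fgf13, an intracellular FGF homologue that binds sodium channels, are shown as examples, with the stretches and capitals as above.
Gata2, start at 0 (chr6:88193741-88193920, plus strand): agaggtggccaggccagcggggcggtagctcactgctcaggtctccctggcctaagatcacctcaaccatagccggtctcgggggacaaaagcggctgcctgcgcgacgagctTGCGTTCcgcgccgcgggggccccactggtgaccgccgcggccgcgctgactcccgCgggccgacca
Gata2, covered start (chr6:88198514-88198693, plus strand): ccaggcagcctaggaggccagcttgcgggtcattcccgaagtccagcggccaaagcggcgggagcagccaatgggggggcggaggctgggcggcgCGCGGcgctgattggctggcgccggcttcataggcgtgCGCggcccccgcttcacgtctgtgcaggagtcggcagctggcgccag
Fgf13, start at 0 (chrX:59134407-59134586, minus strand): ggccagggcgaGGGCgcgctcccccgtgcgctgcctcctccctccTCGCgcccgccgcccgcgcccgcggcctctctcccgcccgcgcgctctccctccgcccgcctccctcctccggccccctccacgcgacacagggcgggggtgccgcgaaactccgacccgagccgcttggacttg
Fgf13, covered start (chrX:59567319-59567498, minus strand): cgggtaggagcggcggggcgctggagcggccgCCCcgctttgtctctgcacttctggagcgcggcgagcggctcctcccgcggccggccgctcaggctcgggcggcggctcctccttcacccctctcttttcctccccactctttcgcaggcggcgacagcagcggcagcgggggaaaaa

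The Gata2 starts lay 4773 bp apart. At the downstream start both listed sites had 2, 2, 1, 1 and 1 entries, while the sites at the upstream start were at 0. The window of the start at 0 held 32 CpG at 69.3% GC and that of the covered start 29 CpG at 73.7%, and only the latter held CCAAT. The Fgf13 starts lay 432912 bp apart, and the covered, upstream start had 1, 2, 1, 2 and 2 entries. Their windows were close in composition, with 37 CpG at 73.0% GC for the start at 0 and 40 CpG at 74.3% GC for the covered start. In these 17 genes neither CpG number nor GC content ordered the starts by coverage.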

How the data were processed

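Per the submitters' processing notes, Bowtie2, MACS2, deepTools and the build GRCm38 (mm10) were used, with no versions, settings or order given. No source used here gives Tn5 shifting, duplicate handling, peak thresholds, read depth or the origin of the site list. The signal values, whole numbers from 0 to 10, were made by the authors from 1 BED file per library, per the file headers. They were read as the number of entries over the site, which is an inference. The members and gene lists were chosen with earlier results of these data known.

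Sites were grouped by the table's gene symbol, and 7587 of 8034 symbols matched the GRCm38.p6 gene table (36 by synonym). The 5′ end is that table's start or end by the deposited gene strand. It is the outer limit of the whole gene record, and starts inside the gene were not used for these distances. Distances run to the nearest edge of a site. Named genes were, for each list, up to 4 never-covered genes with the nearest site to the 5′ end, the 8 with most sites, the extremes of the CpG ratio among genes with a site within 50 bp, and the 8 mixed genes of each kind with the highest entries. Family counts used symbol patterns. Further gene names illustrate lists and counts, and the report marks those singled out after their values were seen. Galnt2l (394 sites over 4.13 Mb) was counted and not named as a result.

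Each time has 1 library, so no test was run. Wilson 95% intervals cover counting error over sites or genes only, and sites share intervals, so they are too narrow. Intervals of medians are of the same kind. Since a promoter window was found for 64.4% of never-covered genes, the planned comparison of CpG ratio and motifs between gene classes was void and was not made; the shares by window were added after the data were seen. Functions were checked on simulated tables. Python 3.11.15, pandas 2.3.3, numpy 2.4.6, scipy 1.17.1 and matplotlib 3.10.9 were used.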

Additional observations from a re-analysis of the deposited data

How the results depend on the processing

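Leaving out each library in turn gave 10149 to 10828 named sites at 0, 1545 to 1603 never-covered genes and 974 to 1055 genes with both kinds of site; the highest values came without the 1.5 h library. Merging sites gave 2698 regions at 0 within 200 bp and 2182 within 500 bp (24.9% and 24.7% of regions). With only sites within 1000 bp of the 5′ end, 988 genes were never-covered (16.2%) and 546 had both kinds (8.95%). The median distance of the nearest site to the 5′ end was 612 bp in never-covered and 198 bp in covered genes with 1 listed site. To a site covered in all 5 libraries, the median distance from a zero of the same gene was 542 bp over 2943 sites. The cause was not tested, except that merging and the distance limit count fewer features by construction. The other 25 alternative values stayed close to the main ones, and allowing a total of 1 entry gave 10655 sites and 1625 genes. Of 30 alternative counts of single lists, 7 moved by over 1.5 times, all with only sites within 1000 bp of the 5′ end, which also leaves fewer genes. They were 2 of 15 neural progenitor (13.3%), 5 of 10 neuron, 0 of 2 astrocyte, 6 of 8 Hox, 5 of 14 proneural (35.7%), 13 of 25 Fox, Sox, Pax, Tbx, Gata and Zic and 14 of 20 receptor genes. Microglia and blood became 4 of 4 (from 3 of 6), and liver, endoderm and muscle 6 of 6 (from 9 of 12). The comparisons of CpG ratio and motifs were not run, nor was the 5′ end from the deposited table, which has no gene coordinates. No paired analysis was possible because each time has 1 library. Depth is unknown, so how many zeros deeper sequencing would fill cannot be given.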
